A study of Mus musculus with 6 samples.

Results

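B-cell follicles form around a small set of genes: the chemokines that lay out the follicle and the receptors, surface proteins and transcription factor of the B cells that fill it. In this series, 9 such genes were followed by name: Cxcl13, Cxcr5, Ccl19, Ccr7, Ms4a1, Cd79a, Cd79b, Pax5 and Cr2. They were taken from the table of raw counts by their Ensembl identifiers, with the version removed, and make up 9 of the 56884 genes listed there. The names follow what the genes do, and they were listed with earlier results of these data known.

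The libraries came from ectopic lesions of a mouse model of endometriosis, in which uterine tissue of a donor female grows in the abdomen of a recipient. There were 3 lesions from Dnmt3a f/f donors, here WT as in the labels, and 3 from Dnmt3a f/f:PR Cre/+ donors, here KO. Both genotypes carry the floxed Dnmt3a allele, and only the KO donors carry Cre. Cre is driven by the progesterone receptor gene, so deletion is limited to donor cells that express, or descended from cells that expressed, this receptor. The recipients were wild type by the labels, so leukocytes that entered a lesion from the host have an intact Dnmt3a gene. Donors and recipients were females aged 8 weeks by the methods, the donors received 17β-estradiol injections before the uterus was taken, and all recipients carried a pellet that releases estrogen. The labels give 4 weeks as the time and injection of tissue fragments into the peritoneum. The methods instead give collection on day 21 and a fragment sutured to the mesenteric membrane. The question was how the loss of Dnmt3a, a de novo DNA methyltransferase, alters gene expression in the lesion.

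CXCL13 and its receptor CXCR5 draw B cells and follicular helper T cells into follicles, while CCL19 and its receptor CCR7 hold T cells and mature dendritic cells in the neighbouring T-cell zone. Lymphotoxin and TNF, made by lymphocytes, act on stromal cells through the non-canonical NF-kappa B pathway and keep CXCL13 production going. The same chemokines appear where lymphoid aggregates form in chronically inflamed tissue outside lymph nodes and spleen. CD79A and CD79B carry the signal of the B-cell receptor, CD20 (encoded by Ms4a1) lies on the surface of mature B cells, PAX5 holds the B-cell programme in place, and CR2 is the complement receptor of B cells and follicular dendritic cells.

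The libraries held 45370342 to 57239184 counts. Dnmt3a was at 52.7, 43.9 and 51.7 CPM (counts relative to the library total after TMM scaling) in the WT and 30.3, 33.5 and 36.2 CPM in the KO lesions, where 3 values in a row stand for replicates 1, 2 and 3. Its log2 fold change of KO against WT came to -0.57 ± 0.14 (SE, adjusted p = 0.321), so the gene pointed the way the labels say without passing the adjusted test. Markers of endometrial epithelium and stroma were present in every lesion, except that Foxa2, a gland transcription factor, was at 0 in KO replicate 3. The lesions were unlike each other in what else they held. Summed levels of 8 adipocyte markers were 4135 CPM in WT replicate 2 and 5899 CPM in KO replicate 3, against 825 to 1577 CPM in the other lesions. WT replicate 2 had a summed level of 10 neutrophil markers of 10350 CPM, against 240.1 and 515 CPM in the other two WT lesions and 44.6 to 234 CPM in KO lesions. WT replicates 1 and 3 had summed skeletal-muscle markers of 29640 and 31680 CPM, against 5.54 CPM in WT replicate 2 and 8.07 to 16.2 CPM in KO lesions. Each of the 9 genes is therefore given for all 6 lesions and again without WT replicate 2, in which case both remaining WT lesions are those with muscle RNA. Low counts were mostly even numbers (89.2% to 90.6% of counts from 1 to 20), so both reads of a fragment may have been counted and a small count may stand for fewer fragments. These are bulk samples, in which fewer B cells and less RNA per B cell cannot be told apart.

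All 9 genes were lower in KO than in WT lesions by their fitted means, and in all 9 the highest lesion was WT replicate 2, which was highest in 24.2% of all tested genes. With the 6 lesions together, 6 of the 9 genes (Cxcl13, Cxcr5, Ccr7, Ms4a1, Cd79a and Pax5) passed an unadjusted p of 0.05 with a log2 fold change under -1, which 5.85% of the 18177 tested genes did. The lowest WT lesion exceeded the highest KO lesion in 7 of the 9, against 8.74% of tested genes. The median log2 fold change was -2.87 over the 9 genes and 0.01 over all tested genes. After Benjamini-Hochberg adjustment over all tested genes, edgeR's quasi-likelihood test called 0 of the 9 (adjusted p from 0.321 to 0.531). It called 1 gene of the whole table, or 0.00550%. DESeq2 called 3 of the 9 (Cxcr5, Ms4a1 and Pax5) and gave Cxcl13 and Cd79a no p. It called 1077 genes in all, or 5.31% of the 20274 to which it gave an adjusted p. Limma voom called 0 of the 9 and 12 of 18177 genes.

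Without WT replicate 2 the differences were smaller. The median log2 fold change of the 9 genes was -1.17, against 0.04 over all genes, and 8 of the 9 were still lower by sign. Of them, 3 (Cxcl13, Cxcr5 and Ms4a1) passed the unadjusted threshold, against 5.86% of the 18923 genes then tested. In 7 of the 9 both remaining WT lesions lay above every KO lesion, against 17.9% of genes. The adjusted test called 0 of the 9 (adjusted p from 0.142 to 0.870) and 2.10% of all genes, among them 10 of 10 skeletal-muscle markers. DESeq2 called Cxcl13 and Ms4a1 along with 6.99% of the 21750 genes to which it gave an adjusted p, and limma voom called Cxcl13 along with 6.45% of genes. Other single lesions mattered as well: 1 of the 9 (Ms4a1) passed the unadjusted threshold without KO replicate 1, 2 without KO replicate 2 (Ms4a1 and Pax5) and 2 without KO replicate 3 (Cxcl13 and Ms4a1). The share of all tested genes lower in these fits was 2.90%, 3.48% and 8.66%. Ms4a1 kept an unadjusted p under 0.05 and a log2 fold change under -1 in each of its 15 alternative fits.

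**Figure D1:**
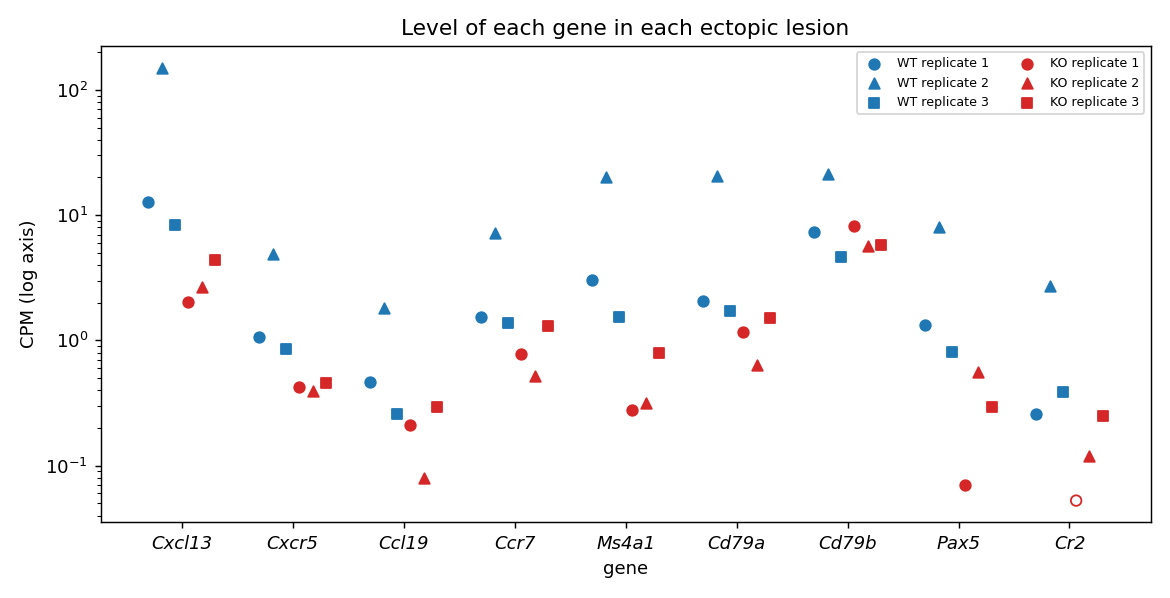
Level of each of the 9 genes in CPM on a log axis, 1 point per lesion, WT in blue and KO in red, with the replicate number given by the marker shape; the open marker is Cr2 in KO replicate 1, which had 0 counts and is drawn at its floor of 3 counts (0.0526 CPM). WT replicate 2 is the highest point for every gene, and the WT and KO points overlap for Ccl19 and Cd79b.

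Cxcl13 (ENSMUSG00000023078.7, chromosome 5 of GRCm38 from 95956951 to 95961068, plus strand) encodes the chemokine that B cells follow into follicles. It was at 12.8, 150.6 and 8.42 CPM in the WT and at 2.04, 2.66 and 4.42 CPM in the KO lesions. All 3 WT lesions lay above all 3 KO lesions, and WT replicate 2 was at 14.2 times the mean of the other two. The group means were 57.3 ± 80.9 CPM in WT and 3.04 ± 1.24 CPM in KO (SD, n = 3 each), so the WT spread was wider than the WT mean itself. Fitted to the 6 lesions, the log2 fold change came to -4.24 ± 1.26 (SE, unadjusted p = 0.0152, adjusted p = 0.321, edgeR). Without WT replicate 2 it came to -1.80 ± 0.41 (SE, unadjusted p = 0.00655, adjusted p = 0.142), and WT replicates 1 and 3 averaged 3.49 times the KO mean. Exact two-sided permutation gave p = 0.1 for the 6 lesions, the smallest value that 3 against 3 allows, and the same p for each of the 7 genes without overlap.

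Ccl19 (ENSMUSG00000071005.8, chromosome 4 from 42754525 to 42756577, minus strand) encodes the T-cell zone chemokine read by CCR7. Its level was low throughout, at 0.47, 1.80 and 0.256 CPM in the WT and at 0.21, 0.0795 and 0.292 CPM in the KO lesions. WT replicate 3 lay below KO replicate 3, so the groups overlapped. These levels rest on 22, 80 and 12 counts in WT and on 12, 4 and 14 counts in KO lesions. The fitted log2 fold change came to -2.10 ± 0.88 (SE, unadjusted p = 0.0539), and -0.90 ± 0.68 without WT replicate 2 (unadjusted p = 0.243). Pseudogene copies of the gene lie on the same chromosome, and how reads shared with them were counted is not given in the sources used here, so the level of Ccl19 is uncertain.

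Cxcr5 (ENSMUSG00000047880.16, chromosome 9 from 44511787 to 44561877, minus strand) encodes the CXCL13 receptor of B cells and follicular helper T cells. It was at 1.07, 4.86 and 0.854 CPM in the WT and at 0.421, 0.397 and 0.458 CPM in the KO lesions. The KO lesions were close together, with a mean of 0.426 ± 0.0308 CPM (SD, n = 3), and every WT lesion lay above them. For Cxcr5 the log2 fold change came to -2.40 ± 0.75 (SE, unadjusted p = 0.0188) and shrank to -1.17 ± 0.35 without WT replicate 2 (unadjusted p = 0.0193). In GENCODE M21 110 exon bases of Cxcr5 are shared with Bcl9l on the other strand, and whether the counting used the strand is not given in the sources used here.

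Ccr7 (ENSMUSG00000037944.9, chromosome 11 from 99144196 to 99155077, minus strand) encodes the receptor for CCL19 and CCL21 on T cells and mature dendritic cells. It was at 1.54, 7.18 and 1.37 CPM in the WT and at 0.772, 0.516 and 1.29 CPM in the KO lesions. The groups did not overlap, but KO replicate 3, with 62 counts, came close to WT replicate 3, with 64. The log2 fold change of -1.96 ± 0.78 (SE, unadjusted p = 0.0463) became -0.75 ± 0.48 (SE, unadjusted p = 0.173) without WT replicate 2, which ended the unadjusted call.

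Ms4a1 (ENSMUSG00000024673.10, chromosome 19 from 11249675 to 11266241, minus strand) encodes CD20, a surface protein of mature B cells that plasma cells lack. It was at 3.03, 20.1 and 1.54 CPM in the WT and at 0.281, 0.318 and 0.792 CPM in the KO lesions. The lowest WT lesion had 72 counts and the highest KO lesion 38, so the groups were apart in every pair of lesions. For Ms4a1 the log2 fold change came to -4.15 ± 1.15 (SE, unadjusted p = 0.0111, adjusted p = 0.321, edgeR). Without WT replicate 2 it came to -2.30 ± 0.62 (SE, unadjusted p = 0.0130, adjusted p = 0.201), and WT replicates 1 and 3 averaged 4.93 times the KO mean, the highest such ratio among the 9 genes.

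Cd79a (ENSMUSG00000003379.8, chromosome 7 from 24897381 to 24902197, plus strand) and Cd79b (ENSMUSG00000040592.12, chromosome 11 from 106311341 to 106314762, minus strand) encode the signalling subunits of the B-cell receptor, which work as a pair. Cd79a was at 2.05, 20.4 and 1.71 CPM in the WT and at 1.16, 0.636 and 1.5 CPM in the KO lesions. Outside WT replicate 2 the groups were separate but near, with 80 counts in WT replicate 3 and 72 in KO replicate 3. The Cd79a log2 fold change was -2.87 ± 1.09 (SE, unadjusted p = 0.0392) and shrank to -0.77 ± 0.45 (SE, unadjusted p = 0.145) without WT replicate 2. Cd79b was at 7.30, 21.3 and 4.63 CPM in the WT and at 8.16, 5.68 and 5.75 CPM in the KO lesions. Its groups overlapped: every KO lesion lay above WT replicate 3, and KO replicate 1 lay above WT replicate 1. The Cd79b log2 fold change was -0.76 ± 0.58 (SE, unadjusted p = 0.237) and turned to 0.13 ± 0.32 (SE, unadjusted p = 0.694) without WT replicate 2.

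The pair therefore did not keep a fixed ratio. Per kilobase of exon, Cd79b was at 3.63, 1.07 and 2.76 times the level of Cd79a in the WT lesions and at 7.17, 9.10 and 3.90 times its level in the KO lesions. The ratio was nearest to equal in the lesion with the most RNA of both genes and higher in each KO lesion than in any WT lesion. Per kilobase, Ms4a1 was 0.348, 0.233 and 0.212 times Cd79a in the WT lesions and 0.0571, 0.118 and 0.124 times Cd79a in the KO lesions, again without overlap. No test was run on these ratios.

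Pax5 (ENSMUSG00000014030.16, chromosome 4 from 44524757 to 44710487, minus strand) encodes the transcription factor that commits cells to the B lineage and keeps them there. It was at 1.32, 8.04 and 0.812 CPM in the WT and at 0.0702, 0.556 and 0.292 CPM in the KO lesions. The WT and KO lesions were separate, and KO replicate 1 held 4 counts. The log2 fold change came to -3.47 ± 1.17 (SE, unadjusted p = 0.0249), and -1.80 ± 0.82 without WT replicate 2 (unadjusted p = 0.0789), past the fold threshold but not the p threshold. Other annotated genes share 761 exon bases with Pax5.

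Cr2 (ENSMUSG00000026616.17, chromosome 1 from 195136811 to 195176716, minus strand), the complement receptor gene of B cells and follicular dendritic cells, was counted 12, 120 and 18 times in the WT lesions and 0, 6 and 12 times in the KO lesions. In CPM this was 0.256, 2.70 and 0.384 in WT and 0, 0.119 and 0.250 in KO lesions. The groups were apart in CPM only by the library sizes of 2 lesions with 12 counts each. For Cr2 the log2 fold change came to -3.18 ± 1.39 (SE, unadjusted p = 0.0626), and -1.39 ± 1.2 without WT replicate 2 (unadjusted p = 0.299). Limma voom put the latter at -3.28 (unadjusted p = 0.0351, adjusted p = 0.145).

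**Figure D2:**
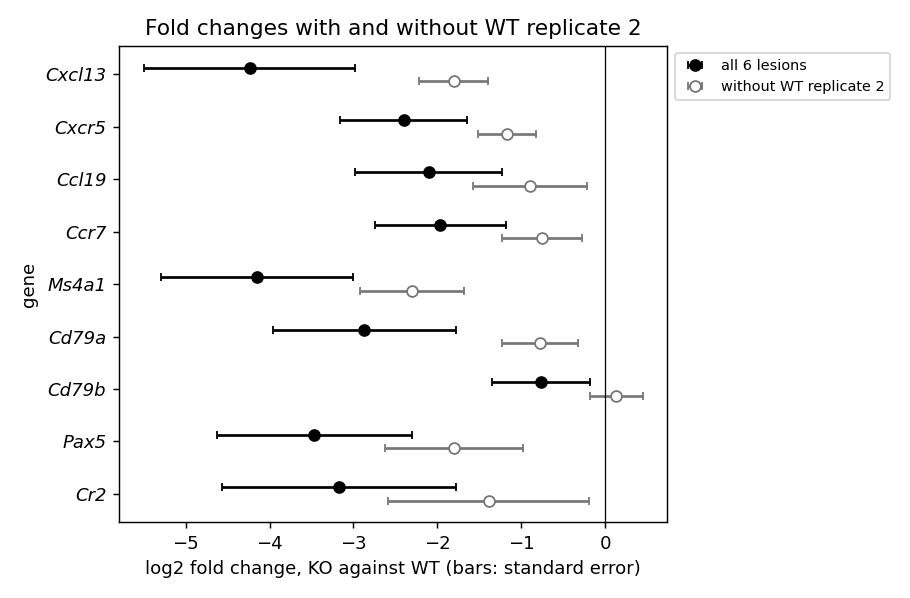
Log2 fold change of KO against WT for each of the 9 genes on the horizontal axis, with bars for 1 standard error, from all 6 lesions (filled black) and without WT replicate 2 (open grey). All 9 filled points lie below 0, every open point lies nearer to or past 0, and Cd79b moves from -0.76 to 0.13.

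DNA methylation itself was not measured. As context for a methyltransferase knockout, the 250 bases before the transcription start were read from RefSeq (GRCm38.p6), which gave a promoter for 5 of the 9 genes (Cxcl13, Ccl19, Cd79a, Pax5 and Cr2). Cxcl13 and Pax5 are printed because they hold the fewest and the most CG dinucleotides, the unit that DNA methyltransferases act on, while both lay lower in every KO than in any WT lesion. Each is written 5′ to 3′ on the strand of its gene with CG in capitals, Cxcl13 from chr5:95956689-95956938 (plus strand) and Pax5 from chr4:44710695-44710944 (minus strand).
Cxcl13: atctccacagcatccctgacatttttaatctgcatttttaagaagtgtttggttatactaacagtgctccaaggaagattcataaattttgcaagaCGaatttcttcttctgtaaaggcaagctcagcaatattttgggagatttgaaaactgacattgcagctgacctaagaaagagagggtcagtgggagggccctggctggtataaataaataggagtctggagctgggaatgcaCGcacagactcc
Pax5: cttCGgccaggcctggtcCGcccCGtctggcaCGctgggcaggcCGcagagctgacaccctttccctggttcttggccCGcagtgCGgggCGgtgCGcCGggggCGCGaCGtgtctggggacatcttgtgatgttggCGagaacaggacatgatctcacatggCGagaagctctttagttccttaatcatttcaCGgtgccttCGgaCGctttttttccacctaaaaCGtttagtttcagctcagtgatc
The Cxcl13 window holds 2 CG, a number that 29.0% of the 32851 RefSeq promoter windows do not exceed, and the Pax5 window holds 19 (82.1%). Between them came Cd79a with 6 (53.7%), Ccl19 with 9 (62.2%) and Cr2 with 11 (66.5%), and the median over all windows was 6. The letters GGAGANTTG, a core of sites bound by the RelB and p52 forms of NF-kappa B, were searched on both strands. They occurred once among the 5 promoters, in Cxcl13 as ggagatttg on the plus strand from 113 bases before the start, and in 1.01% of all windows. The octamer ATGCAAAT of B-cell promoters, also searched on both strands, was in none of the 5 windows and in 1.60% of all windows. Both motifs were picked for what is known of this pathway and of B-cell genes, so a match set beside a share of windows is no test. A match of letters is a description of the sequence and not evidence of binding.

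The 9 genes ran together from lesion to lesion. Over the 6 libraries, Pearson's r of log2 CPM was between 0.581 and 0.992 in the 36 pairs (median 0.928), and between 0.771 and 0.992 in the 28 pairs without Cd79b (median 0.94). All pairs share the same libraries and the same high lesion, WT replicate 2, so these are descriptions without a test. Per kilobase of exon, Cxcl13 was at 34.8, 89.8 and 28.5 times the level of its receptor gene Cxcr5 in the WT lesions and at 14, 19.4 and 27.9 times in the KO lesions. The ligand was thus lower relative to the receptor in each KO lesion, although KO replicate 3 came close to WT replicate 3.

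Among 15039 genes with a mean of at least 1 CPM, the 5 whose log2 CPM followed Cxcl13 most closely over the 6 libraries were Nos2, Sod2, Znfx1, Sp110 and Sap30. Nos2, the inducible nitric oxide synthase, had r = 0.999 with levels of 20.1, 506.5 and 9.72 CPM in the WT and of 1.44, 1.79 and 3.54 CPM in the KO lesions. Both genes had the same order of all 6 lesions. The 5 genes nearest to Cd79a were Upp1, Cyp4f18, Ubtd1, Trpm2 and Klra2. Upp1, a uridine phosphorylase, had r = 0.9991 with levels of 13.8, 210.3 and 12.1 CPM in WT and of 6.84, 3.73 and 8.79 CPM in KO lesions. All 10 of these genes were highest in WT replicate 2.

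Outside the 9 genes, 6 lists describe the rest of the follicle: other B-cell genes, the lymphotoxin and BAFF pathway, other homeostatic chemokines, follicular dendritic and lymphoid stromal cells, high endothelial venules, and germinal centres with follicular helper T cells. Of their 88 genes 81 could be tested, and 22 were lower in KO lesions at the unadjusted threshold (5.85% of all genes) and 0 higher, with a median log2 fold change of -1.08. In the fit without WT replicate 2, 8 of 82 were lower (5.86% of all genes) and 0 higher, with a median of -0.42. With KO replicate 1 left out 5 were lower, and with KO replicate 2 left out 8. The adjusted test called 0 of these genes (edgeR, 6 lesions).

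Among 20 other B-cell genes 7 were lower, among them Fcmr, Tnfrsf13c, Blk, Fcer2a, Spib and Pou2af1. Of the named genes Fcmr, Tnfrsf13c and Blk remained so without WT replicate 2. Tnfrsf13c, the BAFF receptor that B cells need to survive, was at 0.726, 5.31 and 0.427 CPM in WT and at 0.193, 0.0795 and 0.0417 CPM in KO lesions (log2 fold change -4.31, unadjusted p = 0.0124, edgeR), and the groups did not overlap. Its change was -2.41 without WT replicate 2 (unadjusted p = 0.0192). The remaining 13 did not pass, and the summed level of the 20 was 140.2, 405.6 and 147 CPM in the WT lesions, compared with 150.6, 153.3 and 136.4 CPM in the KO lesions. Outside WT replicate 2 this sum overlapped between groups. Vpreb3 alone made up 19 CPM of it in KO replicate 2 and was at 0 in KO replicate 3.

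In the lymphotoxin and BAFF pathway 3 of 14 tested genes were lower, namely Nfkb2, Relb and Ltb. Once WT replicate 2 was left out this was 0 of 14 (edgeR), with Nfkb2, Relb and Traf3 under the p but not past the fold threshold. Ltb, the lymphotoxin subunit made by lymphocytes, was at 5.64, 13.7 and 4.17 CPM in the WT and at 1.67, 1.79 and 3.81 CPM in the KO lesions (log2 fold change -1.70, unadjusted p = 0.0267, edgeR, and -1.02 with unadjusted p = 0.0787 without WT replicate 2). Nfkb2 and Relb, the non-canonical NF-kappa B subunits, had log2 fold changes of -1.28 and -1.25, and of -0.67 and -0.63 without WT replicate 2 (unadjusted p = 0.0193 and 0.0194). Ltbr, the lymphotoxin receptor of stromal cells, lay at 63.7 to 82.6 CPM in WT and 58.5 to 76.1 CPM in KO lesions (log2 fold change -0.09, unadjusted p = 0.594).

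Of the 13 other homeostatic chemokine and receptor genes 4 were lower: Ch25h, Ccr6, Cxcr6 and Cxcr4. Ch25h, whose enzyme makes the precursor of an oxysterol that guides B cells, was at 1.79, 4.10 and 1.97 CPM in the WT and at 0.842, 0.675 and 1.17 CPM in the KO lesions. Its log2 fold change was -1.55 (unadjusted p = 0.0132, edgeR), and at -1.07 it was the only gene of the list to pass without WT replicate 2. The second CCR7 ligand gene, Ccl21a, was at 79.4 to 114.8 CPM in WT and 55.4 to 112.4 CPM in KO lesions (log2 fold change -0.26, unadjusted p = 0.409), and Cxcl12, the ligand of CXCR4, had a log2 fold change of 0.10, or 0.85 without WT replicate 2 (unadjusted p = 0.147, edgeR).

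Among 13 tested genes of follicular dendritic and lymphoid stromal cells Icam1, Il33 and Bst1 were lower, and Il33 remained so without WT replicate 2. The median log2 fold change of the 13 was -0.665, and -0.373 without WT replicate 2. Clu, Mfge8 and Prnp, which follicular dendritic cells express strongly, had log2 fold changes of -0.27, 0.19 and 0.13. Without WT replicate 2 these were -0.52, -0.0045 and 0.03. Cells other than follicular dendritic cells also make these 3 genes, as they do Icam1, Il33 and Bst1. Madcam1, an adhesion molecule of lymphoid stroma and vessels, could not be tested, being at 0 in KO replicates 1 and 2, at 0.0417 CPM in KO replicate 3 and at 0.128, 0.698 and 0.470 CPM in the WT lesions. Among 8 high endothelial venule genes Selp, the P-selectin of vessel walls, was at 44.9 to 135.8 CPM in WT and 9.97 to 45.4 CPM in KO lesions, which overlapped (log2 fold change -1.81, unadjusted p = 0.0515, edgeR, and -1.16 with unadjusted p = 0.164 without WT replicate 2). Of 14 germinal centre and follicular helper T-cell genes Sh2d1a, Cd40, Icos and Cd40lg were lower, of which Sh2d1a and Cd40 remained so without WT replicate 2. Bcl6, the master transcription factor of germinal centre B cells and follicular helper T cells, was at 50.4 to 88.1 CPM in WT and 37.3 to 56.5 CPM in KO lesions (log2 fold change -0.55, unadjusted p = 0.0898, edgeR, and -0.27 with unadjusted p = 0.266 without WT replicate 2).

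**Figure D3:**
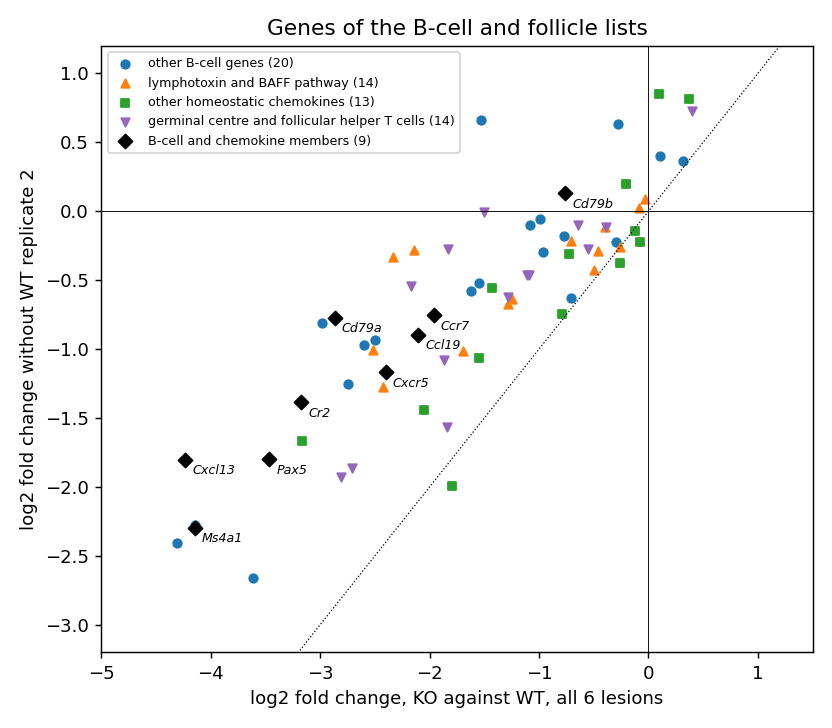
Log2 fold change of KO against WT from all 6 lesions (horizontal axis) against the same value without WT replicate 2 (vertical axis) for the 9 genes (black diamonds) and for 4 of the follicle lists (colours), 1 point per gene; the dotted line marks equal values and 1 B-cell gene with a positive change in both fits, Vpreb3, lies outside the axes. Most points lie above the dotted line, that is at a higher value without WT replicate 2.

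The same lesions also differed in other leukocyte genes. Over all tested genes, 5.85% were lower at the unadjusted threshold, and 5.86% without WT replicate 2. Of 11 T-cell markers 10 were lower at the unadjusted threshold (median log2 fold change -1.91), and 3 without WT replicate 2 (Cd8b1, Cd2 and Cd8a, median of the list -1.45). Their summed level was 46.3 to 118.8 CPM in WT and 10.2 to 33.8 CPM in KO lesions, without overlap, and none of the 11 was at 0 in any lesion. Taken singly, 10 of the 11 had every WT lesion above every KO lesion, against 8.74% of tested genes. Of 10 neutrophil markers 5 were lower and all 10 were highest in WT replicate 2, and without it 0 had a p under 0.05 (edgeR). Of 10 macrophage markers 0 had a p under 0.05 (edgeR), 9 were highest in WT replicate 2, and their sum overlapped between groups, from 1233 to 2848 CPM in WT and from 582 to 1469 CPM in KO lesions. Among dendritic cell markers 0 of 10 passed the unadjusted threshold, though Xcr1 was under its p (log2 fold change -0.83, unadjusted p = 0.0289, edgeR). Of 9 genes of mature migratory dendritic cells, which use CCR7, 4 were lower and 3 without WT replicate 2. Socs2, with the smallest p of that list, went the other way without passing the fold threshold. Its log2 fold change was 0.80 (unadjusted p = 0.00139, edgeR), and 0.70 without WT replicate 2 (unadjusted p = 0.00246). The 5 B-cell genes among the 9 summed to 14, 72.6 and 9.08 CPM in the WT lesions and to 9.67, 7.31 and 8.59 CPM in the KO lesions, with Cd79b the largest part in KO lesions. Relative to the mean of WT replicates 1 and 3, WT replicate 2 was at 7.53 times the level in the median of the 9 genes, 20.3 times in that of the neutrophil markers, 2.13 times in that of the T-cell markers and 0.997 times over all genes. Whether the T-cell, neutrophil, muscle and adipocyte differences have a part in those of the B-cell and chemokine genes was not tested.

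**Figure D4:**
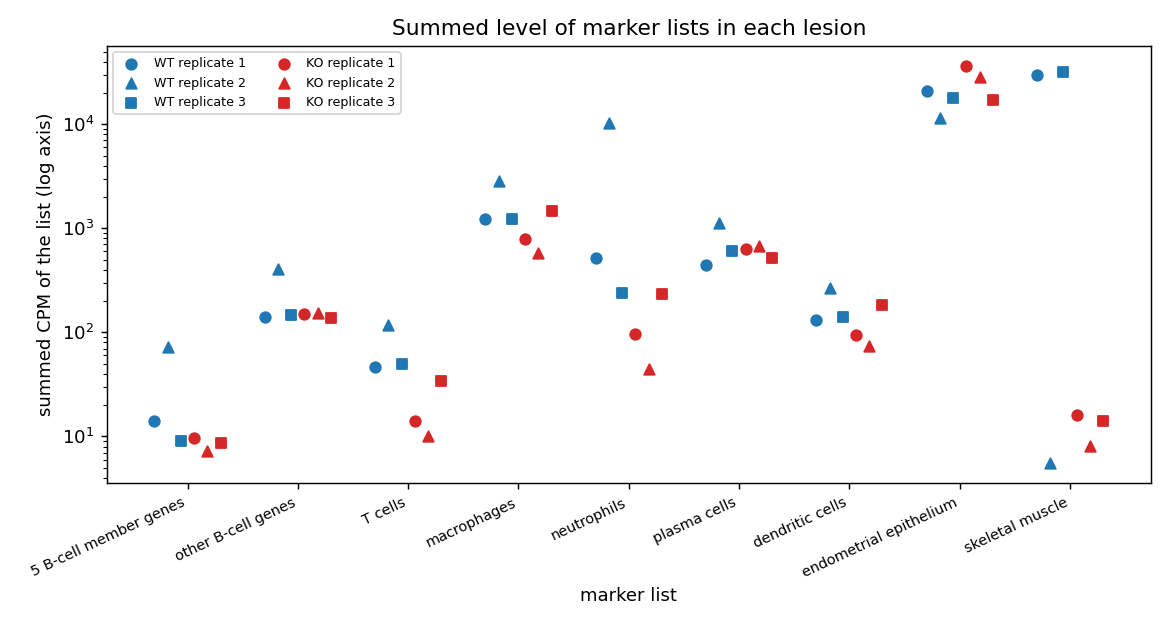
Summed CPM of 9 marker lists on a log axis, 1 point per lesion, with WT in blue, KO in red and replicate numbers as marker shapes. WT replicate 2 is the highest lesion for the B-cell, T-cell, macrophage, neutrophil, plasma-cell and dendritic-cell lists, and WT replicates 1 and 3 are far above the other lesions for skeletal muscle.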

How the data were processed

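RNA of 6 ectopic lesions (3 WT, 3 KO) was sequenced from Illumina TruSeq Stranded mRNA libraries. The authors deposited whole-number read counts for each gene, not normalized, in 1 table and in 6 single-library files that hold the same values. Per the methods the authors trimmed reads, mapped them to GRCm38 and counted them on the Galaxy platform. The submitters' processing notes instead name GRCm39, and list Trimmomatic, featureCounts and DESeq2 without versions. Settings of the counting, including strand and read pairs, are not given in the sources used here. Of 56884 identifiers 51948 had a symbol in GENCODE M21 (GRCm38) after the version was removed, and 35 had the same version, so coordinates may differ in detail from the gene models counted. Identifiers without a symbol held 3.04% to 3.56% of counts.

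The deposited counts were fitted with edgeR 4.0.16 in R 4.3.3 (filterByExpr, which kept 18177 genes, TMM scaling, quasi-likelihood F test, genotype as the only term). Adjusted p-values are Benjamini-Hochberg over all tested genes. The threshold called unadjusted is the one the study uses, a p under 0.05 with a log2 fold change above 1 or below -1. Standard errors are the size of the log2 fold change over the square root of F. CPM were computed with the TMM factors, and correlations used log2 CPM with a prior count of 2. The floor of a library is 3 counts, or 0.0526 to 0.0675 CPM, and covers counting error only. Permutation tests were exact and two-sided. The same fit was repeated without WT replicate 2 (18923 genes). The fit was tested on simulated counts of the 18177 genes in 3 WT and 3 KO libraries: of 200 genes changed by 3 on the log2 scale it recovered 70.5%, with 3 false calls.

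The alternatives were RLE and upper quartile scaling, no filter beyond 1 count, a minimum of 10 counts per library, DESeq2 1.42.0, limma 3.58.1 voom with quality weights, robust prior estimation, the replicate number as a block, each lesion left out, and, chosen after seeing the data, counts halved to read pairs. Genes were named by rule: the 9 genes, Dnmt3a, genes of the lists past the unadjusted threshold or needed to describe a list (at most 6 a list), and the 5 genes most correlated with Cxcl13 and with Cd79a. Vpreb3, Ltbr, Ccl21a, Cxcl12, Clu, Mfge8, Prnp, Madcam1, Bcl6, Foxa2, Socs2, Alox15, Bhlhe41 and Gata6 were named after their values were seen. The 9 genes and the lists were chosen with earlier results of these data known. The methods give 3 donors per genotype, while the labels do not say whether lesions shared a litter or recipient, so p-values measure the spread between these lesions. Some genes of the lists are not reported here.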

Additional observations from a re-analysis of the deposited data

How the results depend on the processing

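All 9 genes kept a negative log2 fold change under each alternative in which they could be tested, except Cd79b, which turned to 0.134 with limma voom and ranged from -1.16 to 0.131 (without WT replicate 2) with single lesions left out. The number past the unadjusted threshold was 6 and ranged from 1 to 7 with single lesions left out, while the share of all genes lower ranged from 2.90% to 8.66%. It was 5 with upper quartile scaling, under which the median over all genes was 0.109 on the log2 scale and the share of lower calls went from 65.4% to 55.9%. With adjusted p-values edgeR called 0 and DESeq2 3 (Ms4a1 at 0.00100, Pax5 at 0.0192, Cxcr5 at 0.0343). With all 6 lesions DESeq2 gave Cxcl13 and Cd79a neither an unadjusted nor an adjusted p, so it could not call them. Over the whole table DESeq2 called 1077 genes and edgeR 1. Without WT replicate 2, 3 passed unadjusted, and 6 with limma voom, against 5.86% and 9.61% of all genes. With adjusted p-values DESeq2 then called 2 (Cxcl13 at 0.00292 and Ms4a1 at 0.0171) and limma voom 1 (Cxcl13 at 0.0294), out of 1520 and 1220 genes called in all, against 398 with edgeR. The cause of these differences was not tested. A minimum of 10 counts per library left Ccl19, Pax5 and Cr2 untested. Halved counts, an alternative chosen after seeing the data, left the numbers at 6 and 3, with Ccl19 and Cr2 untested.

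Over all genes, 1064 were lower and 564 higher. The lower count was 1652 with no filter (30336 genes tested), 1839 with DESeq2 and 551 to 1650 with single lesions left out, and the higher count was 855 with limma voom and 280 to 1021 with single lesions left out. The 22 lower genes of the 6 follicle lists became 34 with no filter, 38 with DESeq2 and 5 to 31 with single lesions left out.

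Replicate numbers did not pair the lesions: deviations of same-numbered lesions from their group means correlated at 0.032, -0.152 and -0.201. With the replicate block 2 of the 9 genes (Ms4a1 and Pax5) passed unadjusted and 0 adjusted, 573 genes were lower and 372 higher, and 5 genes of the follicle lists were lower. With 3 lesions against 3, most of these genes at under 10 CPM and 1 WT lesion far above the others, the precision is set by the spread between lesions. Cr2 and Ccl19 are further limited by counts of 0 to 22 outside WT replicate 2.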

Other observations

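Plasma cells are the antibody-secreting end of the B lineage. Of 10 plasma-cell genes 2 were lower in KO lesions at the unadjusted threshold, which 5.85% of all tested genes passed in that direction, and 1 was higher. Mzb1, a chaperone of antibody assembly in plasma and marginal zone B cells, was at 0.576, 9.14 and 0.747 CPM in WT and at 0.193, 0.497 and 0.167 CPM in KO lesions, each in the order of replicates 1, 2 and 3 (log2 fold change -3.60, unadjusted p = 0.0303, edgeR). Jchain, which joins IgA and IgM, was at 79.4, 510.2 and 161 CPM in WT and at 51.3, 65.7 and 80.8 CPM in KO lesions (log2 fold change -1.92, unadjusted p = 0.0308), so WT replicate 1 lay just below KO replicate 3. Fkbp11, a secretory chaperone found in many secreting cells, was higher, at 14.3 to 20.8 CPM in WT and 20.4 to 79 CPM in KO lesions (log2 fold change 1.72, unadjusted p = 0.0147). Without WT replicate 2, 0 of the 10 were lower at an unadjusted p under 0.05 and Fkbp11 remained higher (edgeR). The summed level of the 10 genes was 449 to 1116 CPM in WT and 524 to 676 CPM in KO lesions, and none of the 10 was at 0 in any lesion.

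Of 8 genes used for B-1 cells, the B cells of body cavities, Zbtb32, Spn and Ctla4 were lower with all 6 lesions (log2 fold changes of -2.14, -1.38 and -3.33) and 0 without WT replicate 2 (edgeR), where Spn kept a p under 0.05. Spn and Ctla4 are also genes of T cells. Bhlhe41, a transcription factor of B-1a cells, had a log2 fold change of 0.80 (unadjusted p = 0.0886). Among 10 genes of large macrophages of body cavities, Timd4 and Prg4 were lower and F5 higher, each also without WT replicate 2. Over all 18177 tested genes 1064 were lower and 564 higher. Alox15 was higher by p but not past the fold threshold (log2 fold change 0.98, unadjusted p = 0.0255, edgeR). The summed level of the 10 genes overlapped, at 333 to 467 CPM in WT and 324 to 617 CPM in KO lesions. Timd4, a receptor for phosphatidylserine, was at 2.48, 17.3 and 2.52 CPM in WT and at 0.316, 0.715 and 0.708 CPM in KO lesions (log2 fold change -3.68 with all 6 lesions and -2.10 without WT replicate 2). Gata6, the defining transcription factor of those macrophages, had a log2 fold change of -0.43 (unadjusted p = 0.458).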
